A study of Mus musculus with 2 samples.

Results

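The genes Csnk2a1, Csnk2a2 and Csnk2b, which encode the subunits of protein kinase CK2, were followed across sections of a mouse melanoma. They were chosen by name and are 3 of the 19465 genes in the deposited count matrices. CK2 is a serine and threonine kinase that is active without an external signal. Csnk2a1 encodes the catalytic subunit alpha and Csnk2a2 the closely related catalytic subunit alpha prime. Csnk2b encodes the regulatory subunit beta, which forms a dimer that binds the catalytic subunits and shapes which substrates they phosphorylate. The kinase acts in growth, survival and protein synthesis, and its activity is often raised in tumours.

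Tumours came from inoculated B16.F10 cells, a mouse melanoma line that makes pigment, and were removed on day 15 from untreated hosts aged 8 to 16 weeks. Gene expression was read with Visium CytAssist probes on formalin-fixed sections of 10 µm, so each capture spot is a small region that can hold several cells. The WT section came from a Csnk2b fl/fl mouse without Cre, labelled wild-type. The KO section came from a Foxp3-Cre × CK2b-fl/fl mouse, so both hosts carried floxed Csnk2b and Cre was driven by the promoter of Foxp3, the transcription factor of regulatory T cells. Inoculated tumour cells and host cells without Foxp3 keep Csnk2b in this model. The WT section had 3066 spots with 88735936 unique molecular identifiers (UMIs), and the KO section had 2746 spots with 94422680 UMIs. Median depth per spot was 26818.5 UMIs in WT and 36769 UMIs in KO tissue, and 395 WT and 356 KO spots lay below 5000 UMIs. Both grids have 4992 positions, and 2138 spot barcodes occurred in both sections. For a check of the melanoma label, 12 of 12 listed melanocytic genes were in the matrix, and together they gave 43232 UMIs per 1000000 (CPM) in WT and 49666 CPM in KO tissue. Collagen genes gave 15916 CPM (WT) and 2773 CPM (KO), and T cell genes 31.6 and 82.3 CPM.

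With 1 section per genotype no value has a replicate check, and no test was run. Ranges in brackets are exact 95% intervals that cover counting error alone, and the spread inside a section is shown by its 4 quadrants. In spots of mixed cells, fewer cells of a type and less RNA per cell cannot be told apart. UMIs of different genes come from different probes, so a ratio between subunits is compared between places or sections and is not a stoichiometry. RefSeq lists 3 pseudogenes of the catalytic subunit genes, Csnk2a3, Csnk2a1-ps1 and Csnk2a1-ps. Whether probes shared them was not tested.

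The promoter windows of the genes are shown as a description. Whether they bear on where the RNAs were found was not tested. Each window runs from 250 bases before to 50 bases after a RefSeq transcript start in GRCm38.p6, 5′ to 3′ on the gene's strand. Csnk2a1 (chromosome 2, 152226535 to 152281856) has the window chr2:152226590-152226889 on the plus strand. Csnk2a2 (chromosome 8, 95446096 to 95488868) has chr8:95488771-95489070 on the minus strand. Csnk2b (chromosome 17, 35116195 to 35122053) has 3 listed windows, of which the second, chr17:35121380-35121679 on the minus strand, is printed. The Csnk2a1 window and the printed Csnk2b window lie inside these gene spans. Bases before their transcript starts are thus not upstream of the whole gene. Capitals mark CTTCCGG, the reverse complement of the ETS-type motif CCGGAAG.
Csnk2a1: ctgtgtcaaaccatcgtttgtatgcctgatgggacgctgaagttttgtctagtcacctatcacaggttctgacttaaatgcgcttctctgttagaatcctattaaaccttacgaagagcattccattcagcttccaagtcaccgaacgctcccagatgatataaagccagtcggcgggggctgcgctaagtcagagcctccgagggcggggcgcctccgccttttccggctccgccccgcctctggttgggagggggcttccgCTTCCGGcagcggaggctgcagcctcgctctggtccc
Csnk2a2: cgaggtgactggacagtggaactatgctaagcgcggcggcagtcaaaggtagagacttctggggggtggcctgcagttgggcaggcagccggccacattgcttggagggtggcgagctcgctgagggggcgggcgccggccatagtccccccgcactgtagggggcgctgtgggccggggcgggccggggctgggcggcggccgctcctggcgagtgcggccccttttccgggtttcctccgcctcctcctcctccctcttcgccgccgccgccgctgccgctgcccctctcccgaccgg
Csnk2b: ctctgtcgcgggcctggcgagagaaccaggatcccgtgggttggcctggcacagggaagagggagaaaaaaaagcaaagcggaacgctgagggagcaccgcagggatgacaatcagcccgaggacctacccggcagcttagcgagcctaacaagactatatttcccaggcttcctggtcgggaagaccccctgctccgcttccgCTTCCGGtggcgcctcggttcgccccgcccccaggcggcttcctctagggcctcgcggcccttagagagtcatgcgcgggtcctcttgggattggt

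Motifs were searched on both strands. CCGGAAG occurred once in the Csnk2a1 window, 14 bases after the start, and once in the printed Csnk2b window, 46 bases before the start. The same occurrence lies in the overlapping first Csnk2b window, 183 bases before the start of that window's transcript. These letters were not found in the Csnk2a2 window or in the Csnk2b window farthest upstream, and 8.86% of all 32851 mouse promoter windows of this length hold them. The GC box GGGCGG, held by 35.7% of all windows, occurred 3 times in the Csnk2a2 window and 2 times in the Csnk2a1 window. TATAAA was found in the Csnk2a1 window, 91 bases before the start, and in 13.6% of all windows. The Csnk2b window farthest upstream holds the E2F-type motif TTTCCCGC, found in 1.07% of windows. All were rich in CpG, with 20 in the Csnk2a1, 30 in the Csnk2a2 and 23 in the printed Csnk2b window against a median of 7. A match describes the letters and not binding.

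Csnk2a1 was the subunit gene with the highest KO over WT ratio. It gave 15641 UMIs in the WT section, or 176 CPM, with quadrants at 129, 152, 190 and 204 CPM. The KO section gave 24088 UMIs, or 255 CPM, with quadrants at 213, 245, 264 and 275 CPM. The ratio was 1.45 (1.42 to 1.48). The share of all genes with quadrants that lie apart between the sections was not counted. Among 10374 genes with at least 500 UMIs, 19.5% were 25% or more higher in the KO section, and Csnk2a1 stood at percentile 93.1. A WT spot had a median of 4 Csnk2a1 UMIs (percentiles 10 to 90, 0 to 12) and a KO spot a median of 9 (0 to 18). Among spots of at least 5000 UMIs, 90.6% in WT and 94.8% in KO tissue had a Csnk2a1 UMI.

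Csnk2a2 differed less between the sections. It stood at 157 CPM in the WT section, with quadrants from 132 to 167 CPM, and at 181 CPM in the KO section, with quadrants from 176 to 185 CPM. The ratio was 1.16 (1.13 to 1.18), at percentile 70.3 of genes. The highest WT and the lowest KO quadrant lay close, at 167 and 176 CPM.

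Csnk2b, the gene floxed in the host, gave 34809 UMIs (392 CPM) in WT and 36969 UMIs (392 CPM) in KO tissue. WT quadrants lay at 297, 390.2, 408 and 429 CPM and KO quadrants between 386 and 403 CPM, so the KO values fell inside the WT range. The ratio was 0.998 (0.984 to 1.01), at percentile 48.0 of genes.

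These ratios depend on how the libraries are scaled. TMM factors lowered every KO over WT ratio by 0.22 on the log2 scale. With them the ratio was 1.24 for Csnk2a1, 0.994 for Csnk2a2 and 0.858 for Csnk2b. With TMM factors 6.71% of genes were 25% or more higher and 37.6% were 20% or more lower. Without them these shares were 19.5% and 20.1%, and the median ratio over genes was 1.01. Median-of-ratios factors gave 1.42, 1.14 and 0.981 for the 3 genes. Leaving the 50 most abundant genes out of the total gave 1.44, 1.15 and 0.990. Since the sections also differed in collagen genes, the same ratios are given by place.

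**Figure D1:**
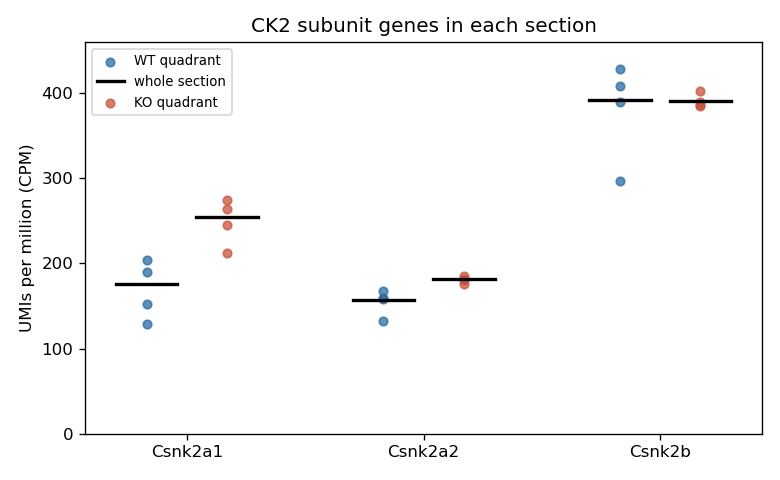
UMIs per 1000000 (CPM) of the CK2 subunit genes. Points are the 4 quadrants of the WT (blue) and KO (red) section and black lines the whole section. Csnk2a1 quadrants reached 129 to 204 CPM in WT and 213 to 275 CPM in KO tissue, while the KO quadrants of Csnk2b lay inside the WT range.

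Ratios between the subunit genes need no library scaling. Csnk2b gave 1.18 UMIs per catalytic UMI (Csnk2a1 plus Csnk2a2) in the WT section (1.16 to 1.20) and 0.897 in the KO section (0.884 to 0.910). WT quadrants ran from 1.14 to 1.26 and KO quadrants from 0.866 to 0.995. Csnk2a1 made up 52.9% of catalytic UMIs in the WT section (52.3 to 53.5) and 58.4% in the KO section (58.0 to 58.9). The quadrants overlapped slightly in this share, at 49.1 to 55.0% in WT and 54.8 to 59.8% in KO tissue.

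Place within the tumour was described next. Melanoma-dense spots take a share of melanocytic UMIs at or above the median spot, and collagen-rich spots are the top 10% by the share of collagen genes, with bounds taken over both sections. By these bounds the WT section had 1299 melanoma-dense, 575 collagen-rich and 1192 remaining spots. The KO section had 1607 melanoma-dense and 1132 remaining spots but only 7 collagen-rich spots. Its collagen-rich values are therefore given for the top 10% within that section, 275 spots, in which collagen genes took a mean of 3.63% of UMIs against 13.9% in the 307 WT spots chosen the same way.

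All 3 genes were lower in collagen-rich than in melanoma-dense spots. In the WT section Csnk2a1 went from 197 to 81.9 CPM, a ratio of 0.416 (0.385 to 0.449). Csnk2a2 went from 165 to 86.3 CPM, a ratio of 0.524 (0.485 to 0.565). Csnk2b went from 419.7 to 194 CPM, a ratio of 0.463 (0.440 to 0.487). Most genes lay on the same side, since 56.3% of 10179 genes were 20% or more lower there and the median ratio was 0.726.

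With bounds within each section the WT ratios were 0.355 for Csnk2a1, 0.457 for Csnk2a2 and 0.404 for Csnk2b, with 59.3% of genes 20% or more lower. In the KO section Csnk2a1 went from 273 to 115 CPM, a ratio of 0.421 (0.373 to 0.475, quadrants 0.333 to 0.602). Csnk2a2 went from 177 to 112 CPM, a ratio of 0.632 (0.558 to 0.713). Csnk2b went from 393 to 223 CPM, a ratio of 0.568 (0.520 to 0.619). In that comparison 50.3% of genes were 20% or more lower. By these bounds collagen-rich spots were also shallower. Their median was 15177 UMIs against 36397 in melanoma-dense spots of the WT section, and 6921 against 42505 in the KO section. The proliferation genes stood at 1388 CPM in WT collagen-rich and 5922 CPM in WT melanoma-dense spots. The part of depth and of dividing cells in the difference was not tested.

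The difference between the sections in Csnk2a1 was also seen within melanoma-dense spots. In melanoma-dense spots Csnk2a1 stood at 197 CPM in WT and 272 CPM in KO tissue, a ratio of 1.38 (1.35 to 1.42). In the remaining spots it stood at 168 and 207 CPM, a ratio of 1.24 (1.19 to 1.29). Csnk2a2 had ratios of 1.08 and 1.16 in the same places, and Csnk2b ratios of 0.942 and 0.947. In collagen-rich spots by bounds within each section, which differ in collagen share, the ratios were 1.66 (1.41 to 1.95) for Csnk2a1, 1.48 (1.26 to 1.74) for Csnk2a2 and 1.30 (1.17 to 1.46) for Csnk2b. With the top 20% by joint bounds, 965 WT and 198 KO spots, they were 1.16 (0.981 to 1.36), 0.914 (0.766 to 1.09) and 0.843 (0.748 to 0.948), so the direction for Csnk2a2 and Csnk2b there depended on the bounds. Csnk2a1 took 54.5% of catalytic UMIs in WT and 60.4% in KO melanoma-dense spots (59.9 to 61.0). In the remaining spots these shares were 50.6% (49.6 to 51.6) and 52.2% (51.2 to 53.2), whose intervals overlap.

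Spots rich in other cell types were then taken as the top 10% of each section by the share of a marker list, 307 WT and 275 KO spots per list. Keratinocyte genes, at 2.27 CPM (WT) and 2.89 CPM (KO) over the sections, gave 191 WT and 250 KO spots with a UMI, which were left out of the orders below. These sets overlap, hold mixed cells and differ in depth. Median UMIs per spot were 32597 (WT) and 42318 (KO) in melanocytic-rich spots, but 11145 and 6905 in macrophage-rich spots. T cell-rich spots had medians of 17789 and 11699 UMIs, and WT erythroid-rich spots 7373 UMIs. The part of depth in the orders below was not tested. Among the other lists, Csnk2a1 in the WT section was highest in melanocytic-rich spots at 188 CPM and lowest in collagen-rich spots at 69.3 CPM (62.1 to 77.2). Macrophage-rich spots came next at 79.5 CPM (70.5 to 89.3), followed by T cell-rich spots at 110 CPM, erythroid-rich at 127, endothelial-rich at 141, adipocyte-rich at 157 and skeletal muscle-rich at 169.8 CPM. Collagen-rich and macrophage-rich spots did not differ beyond their intervals. In KO tissue the lowest were macrophage-rich spots at 105 CPM and collagen-rich spots at 115 CPM, again with overlapping intervals. T cell-rich spots stood at 186 and skeletal muscle-rich spots at 187 CPM, and melanocytic-rich spots at 266 CPM. The T cell values depended on the spot set. Spots with at least 2 UMIs of T cell genes, with medians of 34326 (WT) and 45862.5 UMIs (KO), had 156 and 247 CPM of Csnk2a1.

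Over the same lists Csnk2b ran from 171 CPM in collagen-rich to 396 CPM in melanocytic-rich spots of the WT section. In the KO section it ran from 195 CPM in macrophage-rich to 373 CPM in melanocytic-rich spots. KO Csnk2a2 ran from 98.2 CPM in macrophage-rich to 178 CPM in skeletal muscle-rich spots. The spots with a keratinocyte UMI, not in these ranges, had 253 CPM of Csnk2a1, 182 CPM of Csnk2a2 and 393 CPM of Csnk2b in KO tissue and 156, 147 and 361 CPM in WT tissue.

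The Csnk2a1 share of catalytic UMIs also differed by place. In WT tissue it was 53.7% in melanocytic-rich spots (52.1 to 55.2) and 46.8% in T cell-rich spots (44.2 to 49.4). In KO tissue it was 60.6% in melanocytic-rich spots (59.2 to 61.9) and 51.6% in T cell-rich spots (49.4 to 53.8). The T cell-rich spots were not alike, with a median of 206 CPM of T cell genes in WT and 567 CPM in KO tissue. They held 692 Csnk2a1 and 787 Csnk2a2 UMIs in WT and 1037 and 973 UMIs in KO tissue. Spots with at least 2 UMIs of T cell genes held 3176 and 3177 UMIs in WT and 11422 and 8431 UMIs in KO tissue. The Csnk2a1 share near T cells was thus higher in that set, in both sections. Skeletal muscle-rich spots had 52.8% in the WT (50.8 to 54.7) and 51.3% in the KO section (48.9 to 53.7), although muscle markers gave only a median of 85.5 CPM in those WT spots against 1126 CPM in the KO spots. Whether the sections differ more in one place than in another was not tested.

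**Figure D2:**
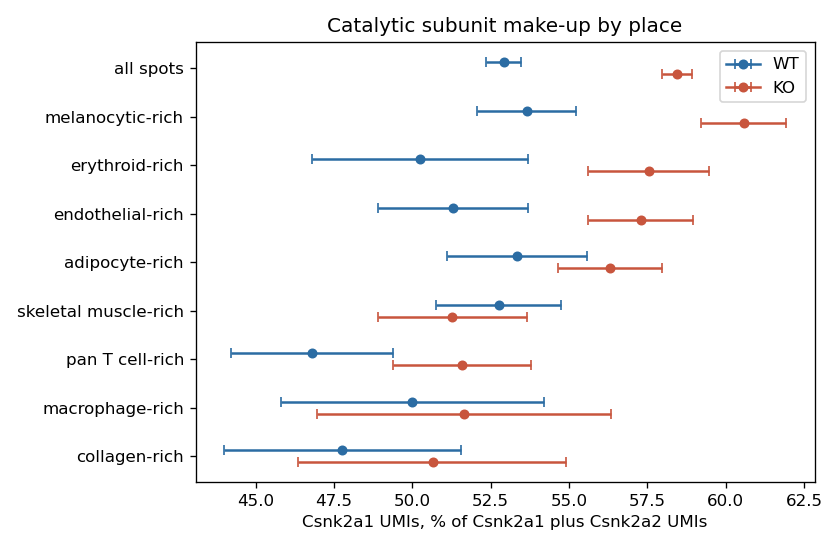
Csnk2a1 UMIs as a percentage of Csnk2a1 plus Csnk2a2 UMIs in all spots and in spots rich in each marker list, for the WT (blue) and KO (red) section. Bars are exact 95% intervals of counting error. The sections lie apart in melanocytic-rich spots (53.7% and 60.6%) and have overlapping bars in skeletal muscle-rich spots (52.8% and 51.3%).

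Depth from the tissue edge was counted in steps on the hexagonal grid. KO Csnk2a1 was higher in each of the 5 bins inward than in the one before, from 219.8 CPM at steps 1 to 2 through 245, 268 and 278 CPM to 303 CPM at steps 15 to 20. The ratio of the core, from step 10, to the edge was 1.29 (1.24 to 1.34), with quadrants from 1.08 to 1.45. In the KO section 8.07% of 10015 genes were 25% or more higher in the core, and Csnk2a1 stood at percentile 94.1. The share of melanocytic UMIs was also higher inward, from a mean of 3.41% to 5.74% per spot. Within melanoma-dense spots KO Csnk2a1 went from 245 to 304 CPM, and its core to edge ratio was 1.17 there, below that over all spots.

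In the WT section Csnk2a1 went from 169 to 202 CPM over the same bins, the last of which held 21 spots and 141 Csnk2a1 UMIs. Its core to edge ratio was 1.14 (1.09 to 1.21), with 0.949 and 1.23 in the 2 quadrants that had enough spots. The background was 4.95% of genes 25% or more higher. Csnk2a2 stayed between 176 and 188 CPM over the KO bins, with a core to edge ratio of 1.025 (0.981 to 1.07). In the WT section its ratio was 1.07 (1.01 to 1.14), and 0.957 among melanoma-dense spots. Csnk2b had ratios of 1.17 (1.13 to 1.21) in WT and 1.05 (1.02 to 1.09) in KO tissue. In KO tissue the Csnk2a1 share of catalytic UMIs accordingly ran from 55.6% at the edge to 62.9% in the innermost bin, while WT bins lay between 52.1 and 54.5%.

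**Figure D3:**
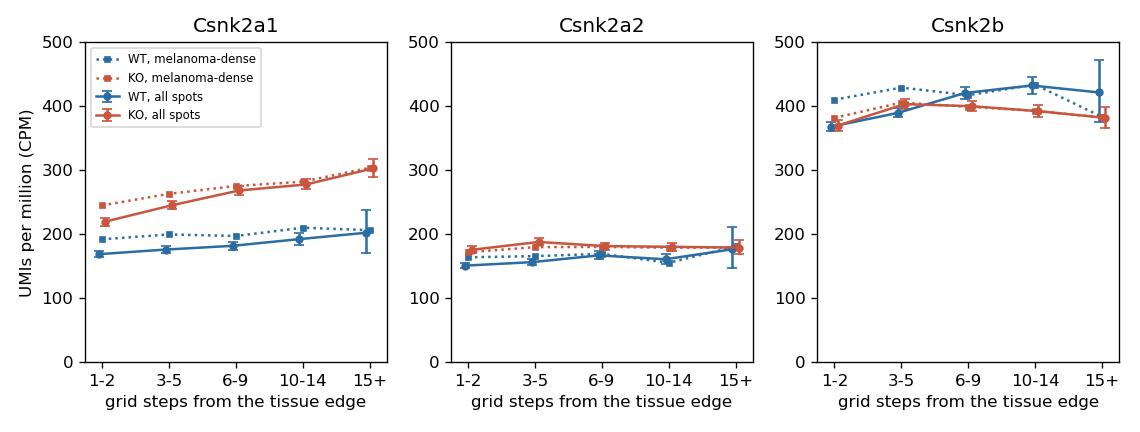
CPM of each gene against grid steps from the tissue edge for the WT (blue) and KO (red) section. Solid lines are all spots with exact 95% intervals of counting error, and dotted lines are melanoma-dense spots. KO Csnk2a1 climbs from 219.8 to 303 CPM, while KO Csnk2a2 stays between 176 and 188 CPM.

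On the map of tiles of at least 200000 UMIs, read without a test, KO Csnk2a1 had a median of 276 CPM over the 43 tiles of rows 0 to 5, with a lowest tile at 173 and a highest at 313 CPM. Its median was 219 CPM over the 33 tiles of rows 6 to 11, with tiles from 151 to 276 CPM. Csnk2a2 stood at medians of 184 and 172 CPM and Csnk2b at 387 and 392 CPM in the same KO tiles. The lowest WT tiles of rows 0 to 5 reached 60.1 CPM for Csnk2a1, 60.1 CPM for Csnk2a2 and 135 CPM for Csnk2b. The split by rows was chosen after the map had been drawn.

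**Figure D4:**
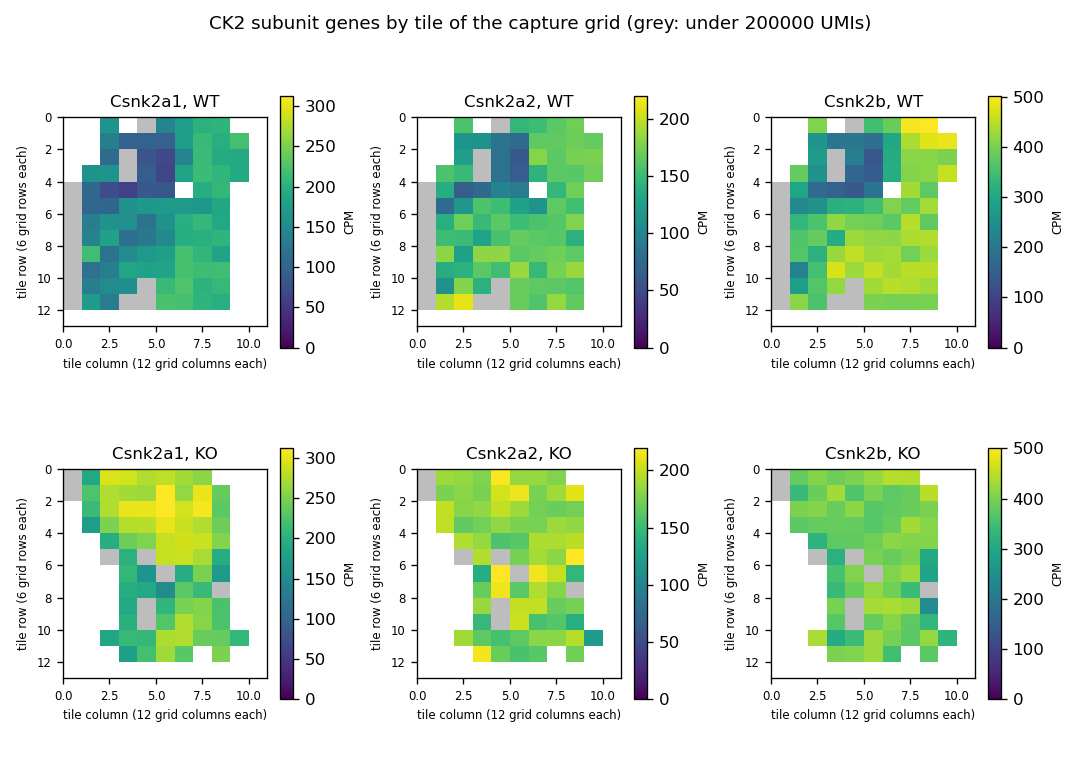
CPM of each gene in tiles of 6 grid rows by 12 grid columns, WT above and KO below, with 1 colour scale per gene shared by the sections, and tiles under 200000 UMIs in grey. All 3 genes are dark in the upper middle of the WT section. KO Csnk2a1 is brighter in tile rows 0 to 5 than in rows 6 to 11 (medians of 276 and 219 CPM), while KO Csnk2b is not (387 and 392 CPM).

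Proliferation was scored from 39 genes of S phase and of G2 and M phase. Over spots thinned to 5000 UMIs, 2671 in WT and 2390 in KO tissue, the Spearman correlation with the list was 0.214 for Csnk2a1, 0.180 for Csnk2a2 and 0.279 for Csnk2b in the WT section. In the KO section the values were 0.187, 0.018 and 0.129. WT quadrants ran from -0.003 to 0.245, from 0.010 to 0.248 and from 0.023 to 0.318 in the same order. KO quadrants ran from 0.073 to 0.235, from -0.013 to 0.139 and from 0.024 to 0.239. The median over 3968 genes was 0.098 in WT and 0.044 in KO tissue. In WT tissue Csnk2a1, Csnk2a2 and Csnk2b stood at percentiles 84.3, 77.4 and 92.0 of genes. In KO tissue they stood at percentiles 93.7, 37.0 and 84.2. Spots of a section share tissue regions, neighbours and a library, and a thinned spot held a mean of 0.740 to 1.87 UMIs per gene, so single-spot values are coarse.

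Among melanoma-dense spots the same correlations were close to 0. In WT tissue they were 0.0087 for Csnk2a1, -0.0031 for Csnk2a2 and 0.0082 for Csnk2b over 1280 spots. In KO tissue they were 0.049, -0.038 and 0.021 over 1595 spots. UMIs were then pooled in quintiles of melanoma-dense spots by proliferation, which gave small differences between the ends. From the lowest to the highest quintile, WT Csnk2a1 stood at 196 CPM at both ends, between which the proliferation list went from 4149 to 7295 CPM. WT Csnk2a2 went from 159 to 165 CPM, a ratio of 1.04 (0.971 to 1.12), and WT Csnk2b from 394 to 448 CPM, a ratio of 1.14 (1.09 to 1.19). In the KO section Csnk2a1 went from 259 to 284 CPM, a ratio of 1.10 (1.05 to 1.15). KO Csnk2a2 went from 176 to 186 CPM, a ratio of 1.06 (1.001 to 1.12), and KO Csnk2b from 389 to 409 CPM, a ratio of 1.05 (1.01 to 1.09). None of these reached a ratio 25% above 1, which 11.8% of WT and 14.1% of KO genes did. The highest quintile was also deeper than the lowest. Median UMIs per spot were 52455 against 28307 in WT and 49400 against 34681 in KO tissue. The part of depth in these ratios was not tested, and depth was not matched between the sections. At matched quintiles the KO over WT ratio of Csnk2a1 lay between 1.32 and 1.45, that of Csnk2a2 between 1.04 and 1.13 and that of Csnk2b between 0.913 and 0.987.

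**Figure D5:**
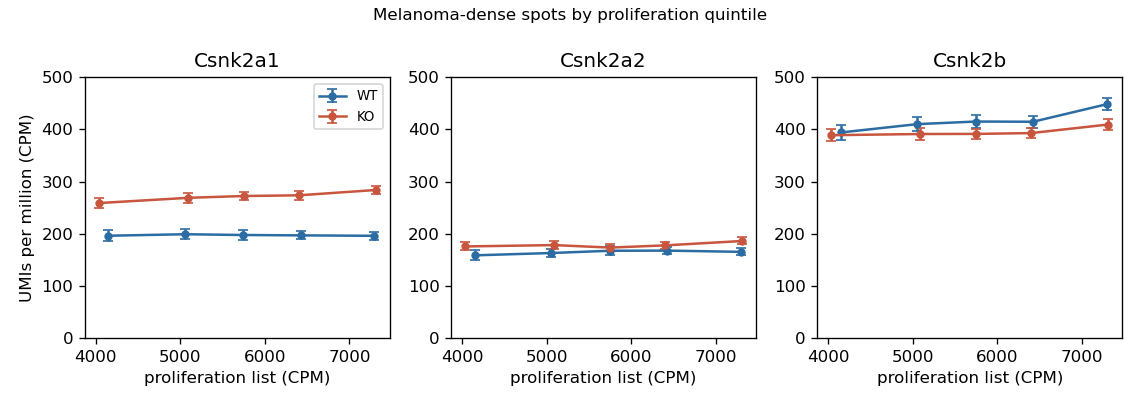
CPM of each gene in melanoma-dense spots pooled into quintiles by proliferation, against the CPM of the proliferation list, for the WT (blue) and KO (red) section with exact 95% intervals of counting error. WT Csnk2a1 is level at 196 CPM at both ends, and the KO line for Csnk2a1 lies above the WT line at each quintile. The quintiles also differ in UMIs per spot.

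Over tiles, 102 in WT and 84 in KO tissue, Spearman correlations with the proliferation list were higher. In the WT section they were 0.715 for Csnk2a1, 0.531 for Csnk2a2 and 0.711 for Csnk2b, with a median over genes of 0.496. In KO tissue they were 0.766, 0.090 and 0.466, with a median of 0.255. Tiles share tissue composition and depth, and 14 WT and 8 KO tiles held under 200000 UMIs. Over the 14 S phase and 15 G2 and M phase genes with at least 5000 UMIs, KO Csnk2a1 had Pearson correlations over tiles from 0.263 with Mcm4, a helicase subunit, to 0.849 with Mki67, which encodes Ki-67. With KO Csnk2a2 the range was from -0.131 with Tyms, which encodes thymidylate synthase, to 0.691 with Tpx2, a spindle assembly factor. With KO Csnk2b it was from 0.137 with Cdc6, a replication licensing factor, to 0.867 with Tpx2. In WT tissue the highest was 0.801 for Csnk2a1 with the flap endonuclease gene Fen1 and 0.786 and 0.727 for Csnk2a2 and Csnk2b with the topoisomerase gene Top2a. These Pearson values include the shallow tiles, which can weigh heavily on them. The shallowest WT tile, of 5563 UMIs, had 0 CPM of all 3 subunit genes. Values over tiles of at least 200000 UMIs alone are not given.

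The subunit genes were weakly related to each other over thinned spots, with Spearman correlations from 0.021 to 0.093 in WT and from 0.030 to 0.045 in KO tissue. Over tiles the Spearman correlation of Csnk2a1 and Csnk2a2 was 0.541 in WT and 0.0027 in KO tissue. The median over all genes with Csnk2a2 was 0.378 and 0.063. Csnk2b had 0.604 with Csnk2a1 and 0.551 with Csnk2a2 in the WT section, and 0.348 and 0.353 in the KO section, while the median over all genes with Csnk2b was 0.453 and 0.188.

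Moran's I, which is near 0 for a scattered gene and rises as neighbouring spots become alike, was given in the authors' deposited table. In the authors' deposited table Csnk2a1 had 0.440 in the WT section, rank 783 of 19296 genes, and 0.490 in the KO section, rank 304 of 19339. Csnk2a2 had 0.336 and 0.353, ranks 1833 and 1212, in the authors' deposited table. Csnk2b had 0.376 and 0.279, ranks 1321 and 2320, in the authors' deposited table. Those ranks include genes with few UMIs. Among 3997 genes of at least 5000 UMIs, I in the authors' deposited table stood at percentile 87.9 (WT) and 94.8 (KO) for Csnk2a1, 66.8 and 76.8 for Csnk2a2 and 77.3 and 54.4 for Csnk2b. Recomputed on log2(CPM + 1), KO Csnk2b stood at percentile 34.6. The total UMIs of a spot were themselves patterned, with an I of 0.896 in WT and 0.901 in KO tissue. After thinning to 5000 UMIs, the recomputed I was 0.078 for Csnk2a1, 0.059 for Csnk2a2 and 0.117 for Csnk2b in the WT section. In the KO section it was 0.071, 0.022 and 0.045. Medians over genes were 0.039 and 0.024.

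The genes most like each subunit gene were ranked, among 3996 genes, by the lower of the Pearson correlations over the tiles of the sections. For Csnk2a1 they were Tpp2, Wdr6, Prcc, Dcaf13 and Arpc5l, with Tpp2 at 0.820 in WT and 0.818 in KO tissue. For Csnk2a2 they were Fermt2, Nus1, Iars, Gars and Csnk2b, with Csnk2b at 0.897 and 0.741. The Spearman correlation of Csnk2a2 with Csnk2b over the same tiles, shallow ones included, was lower, at 0.551 and 0.353. Iars and Gars encode aminoacyl-tRNA synthetases. For Csnk2b they were Mvb12b, C1qbp, Ndufs1, Hist1h4f and Szrd1, with Mvb12b at 0.894 and 0.870. Over tiles of at least 200000 UMIs, 0 of these 5 genes were kept for any subunit gene. The lists over those tiles were Ss18l2, Ssu72, Atp5e, Cox5b and Sec11c for Csnk2a1, and Eif3k, Pop4, Dynlrb1, Mlf2 and Irak1bp1 for Csnk2b.

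Regulatory T cells, the cells in which Csnk2b is deleted, could not be resolved. The floxed exons and the position of the Csnk2b probes are not given in the sources used here, so these counts do not check the deletion. Foxp3 gave 32 UMIs in WT and 51 UMIs in KO tissue, against medians of 21 and 44 UMIs for 15 genes of tissues outside the tumour. In the 31 WT spots with a Foxp3 UMI, Csnk2b stood at 382 CPM (347 to 419), and at 392 CPM in the spots without. In the 49 KO spots with a Foxp3 UMI it stood at 405 CPM (378 to 433), and at 391 CPM without. Spots with at least 2 UMIs of T cell genes, 557 in WT and 1046 in KO tissue, had 383 and 393 CPM of Csnk2b. Csnk2a1 was lower in those spots than in spots with fewer, at 156 against 182 CPM in WT and 247 against 263 CPM in KO tissue. Such spots were deeper in both sections. In the WT section they also had a lower mean share of melanocytic UMIs, at 3.05% against 3.69%.

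Partners and substrates of CK2 lay on both sides of 1. Of 21 measured partner and substrate genes, 1 was 25% or more higher in the KO section and 3 were 20% or more lower, against 19.5% and 20.1% of genes, and their median ratio was 1.001 where that of all genes was 1.01. The higher one was Cdc37, a kinase co-chaperone that CK2 phosphorylates, at 208 CPM (WT) and 271 CPM (KO), a ratio of 1.30 (1.28 to 1.33). The lowest was Nfkbia, which encodes the NF-κB inhibitor alpha, with a ratio of 0.573 (0.546 to 0.600). Npm1, which encodes nucleophosmin, and Eif2s2, which encodes the beta subunit of initiation factor eIF2, both had 0.770, and these names were chosen after the values had been looked at. The members with the most UMIs, Hsp90aa1, Akt1 and Ctnnb1, had ratios of 0.964, 0.963 and 1.001. With TMM factors 0 partners were higher and 6 were lower, where 6.71% and 37.6% of all genes were.

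The 6 genes of the casein kinase 1 family, a separate kinase family with a similar name, had a median ratio of 0.967. Of these, 0 were 25% or more higher and 0 were 20% or more lower, against 19.5% and 20.1% of all genes. They ran from 0.864 for Csnk1e to 1.20 for Csnk1g1. With TMM factors 2 were lower, where 37.6% of all genes were. Housekeeping genes were no fixed scale here, since 4 of 8 were 25% or more higher and 2 lower, against 19.5% and 20.1% of genes. They ran from 0.644 for Actb to 1.98 for Gapdh, with Hprt next highest at 1.61. Gapdh had few counts, with 253 UMIs (2.85 CPM) in WT and 534 UMIs (5.66 CPM) in KO tissue. Of the proliferation genes, 2 of 16 in S phase and 8 of 22 in G2 and M phase were 25% or more higher in the KO section, with 1 and 4 lower, against 19.5% and 20.1% of all genes. With TMM factors 1 in each phase was higher, with 4 and 6 lower, against 6.71% and 37.6% of all genes.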

How the data were processed

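Per the file headers, the deposited matrices hold raw UMI counts per gene and spot for spots under tissue, made with Space Ranger 2.1.0. Without roles, the submitters' processing notes list the mm10 build, featureCounts and Space Ranger. The deposited spatial table holds Moran's I, a score that the authors computed on counts normalized by their software, per the file headers. Its remaining columns and the image files were not used.

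Counts were summed over spots and scaled to the total UMIs of those spots (CPM). Ratios carry exact conditional binomial intervals and CPM exact Poisson intervals at 95%, both for counting error alone, since UMIs were read in 1 section per genotype. A gene entered the background counts with at least 500 UMIs in whichever section it had more, or in the section described, and correlations with at least 5000. Spots were thinned at random to 5000 UMIs for spot correlations, which left out shallower spots. Tiles hold at least 10 spots, and tile correlations used log2(CPM + 1). Steps from the edge count grid steps to a position without tissue or to the frame. TMM factors came from edgeR 4.0.16 in R 4.3.3, and the rest from Python 3.11.15 with numpy 2.4.6, scipy 1.17.1 and pandas 2.3.3. The interval step was tested on simulated data.

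The subunit genes and all lists were chosen with earlier results of these data known. The rule for names took the subunit genes and Foxp3, the 5 genes most like each, and per list the 3 most abundant members along with the extremes of the value described. Listed symbols without a match in the matrix were Rrm2, Ccnb1, Cdc20, Nolc1, Hsp90ab1, Ptges3, Ppia, Rplp0 and Hba-a1. Gene positions and promoter windows are from RefSeq for GRCm38.p6, the assembly that mm10 denotes. Alternatives were other scalings, spot sets, bounds, edges, thinning depths and correlation measures. Proliferation quintiles, spots rich in marker lists and the tile limit of 200000 UMIs were added after seeing the data. The list of genes most like Csnk2a2 over the deeper tiles is not reported here.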

Additional observations from a re-analysis of the deposited data

How the results depend on the processing

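Alternatives were held against the counting interval, the quadrant spread or, for Moran's I, a tolerance of 0.02. Lists of similar genes were judged by how many of the 5 were kept. Of 138 alternatives over 34 results, 71 stayed within that limit and 66 moved beyond it. The remaining 1, the correlation of WT Csnk2a2 with proliferation in melanoma-dense spots, reversed. Other values that crossed to the opposite side were the KO over WT ratios of Csnk2a2 with TMM factors and of Csnk2b with equal weight per spot, the core over edge ratios of WT Csnk2a2 in melanoma-dense spots and of KO Csnk2a2 with an edge of 1 to 5 steps (0.988), and the correlation of KO Csnk2a2 in melanoma-dense spots (-0.038) and at 15000 UMIs per spot (-0.0067). No paired analysis was possible because each genotype has 1 section and the sections share only the number 1, and leaving out a section was not possible either. Where a value moved, the cause was not tested.

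The KO over WT ratio of Csnk2a1 was 1.24 with TMM factors, 1.497 with equal weight per spot, 1.38 in melanoma-dense spots and 1.32 in their lowest proliferation quintile. For Csnk2a2 it was 0.994, 1.20, 1.08 and 1.11, and 1.13 in the highest quintile. For Csnk2b it was 0.858 with TMM, 1.04 with equal weight per spot, 0.942 in melanoma-dense spots, 0.913 in the highest quintile, 0.981 with median-of-ratios factors and 0.978 from step 3 inward. Csnk2b per catalytic UMI was 1.16 in WT collagen-rich spots and 0.877 in KO melanoma-dense spots. In the 7 KO collagen-rich spots it was 1.3 (0.269 to 6.30). Those spots held only 5 Csnk2b, 2 Csnk2a1 and 2 Csnk2a2 UMIs, too few to compare. The Csnk2a1 share was 54.5% and 48.7% in WT melanoma-dense and collagen-rich spots, and 60.4% in KO melanoma-dense spots. In the 7 KO collagen-rich spots the share was 50% (6.76 to 93.2). By bounds within the section, the 275 KO collagen-rich spots gave 0.983 Csnk2b per catalytic UMI (0.871 to 1.11) and a share of 50.6% (46.4 to 54.9).

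The WT collagen-rich over melanoma-dense ratio, with bounds within section, for the top 5% and for the top 20%, was 0.355, 0.341 and 0.477 for Csnk2a1, 0.457, 0.465 and 0.616 for Csnk2a2, and 0.404, 0.402 and 0.557 for Csnk2b. Without the list genes and the 50 most abundant genes in the total, Csnk2b had 0.492. By the joint bounds the 7 KO spots gave 0.168, 0.256 and 0.289, with intervals too wide to compare.

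Core over edge ratios in melanoma-dense spots were 0.957 for Csnk2a2 and 1.05 for Csnk2b in the WT section, and 1.17 for Csnk2a1 and 1.02 for Csnk2b in the KO section. With an edge of 1 to 5 steps, KO Csnk2a1 had 1.22 and KO Csnk2b 1.01, and with distance to positions without tissue only, KO Csnk2b had 1.10.

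Correlations with proliferation on unthinned CPM were 0.422, 0.330 and 0.520 for WT Csnk2a1, Csnk2a2 and Csnk2b and 0.359, 0.118 and 0.248 for KO, and over tiles 0.715, 0.531 and 0.711 for WT and 0.766 and 0.466 for KO Csnk2a1 and Csnk2b. In melanoma-dense spots they were 0.0087, -0.0031 and 0.0082 for WT, and 0.049 and 0.021 for KO Csnk2a1 and Csnk2b.

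Moran's I recomputed on log2(CPM + 1) was 0.531, 0.468 and 0.477 for WT and 0.586, 0.534 and 0.396 for KO, each above the value in the authors' deposited table. Of the 5 genes most like each subunit gene, a Spearman ranking kept 1 for Csnk2a1, 0 for Csnk2a2 and 0 for Csnk2b, and tiles of at least 200000 UMIs kept 0 for each.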
